A study of Saccharomyces cerevisiae with 8 samples.

Results

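The nuclear genes for the yeast respiratory chain and the ATP synthase were followed in capped RNA after a short block of translation and without the decay factor Upf1. The set was fixed by gene identity: 38 genes, all present among the 11844 features of the table, of which 5925 are nuclear protein-coding genes. They comprised 10 genes of complex IV, 9 of complex III, 12 of the ATP synthase, 4 of complex II, the 2 cytochrome c genes and NDI1. No measured value was a criterion, but the set was chosen with earlier results of these data known.

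The 8 libraries, 2 biological replicates in each of 4 groups, came from BY4741 cells (MATa, with his3, leu2, met15 and ura3 deletions) grown in YPD to an OD600 of 0.5 at 30 °C. The groups were upf1-delta cells given cycloheximide (upf1 CHX), upf1-delta cells given the solvent (upf1 DMSO), wild-type cells given cycloheximide (WT CHX) and wild-type cells given the solvent (WT DMSO). Cycloheximide was used at 100 µg/ml for 15 minutes, and all RNA was digested before library preparation with Terminator, an exonuclease that degrades RNA whose 5′ end is a monophosphate and leaves RNA with a cap. A difference therefore combines RNA amount with the share of it that is capped, and these cannot be told apart here.

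Electrons enter the chain of Saccharomyces cerevisiae through complex II, which oxidises succinate, and through single-subunit NADH dehydrogenases such as Ndi1, because this yeast has no complex I. They pass through coenzyme Q to complex III, then by cytochrome c to complex IV, and the proton gradient drives the ATP synthase. Nuclear transcription of many of these genes is activated by the Hap2/3/4/5 complex, which binds CCAAT, and is repressed by glucose, the sugar in YPD. Upf1 acts in nonsense-mediated decay, which needs translation, and cycloheximide stops translation elongation.

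The sequence ACCAATNA, a fuller form of the CCAAT element, was searched on both strands in the 300 bases before each start codon. It was found before 14 of 38 genes (36.8%), against 313 of 6001 promoters (5.22%), and each match also holds the shorter element. The shorter element was found before 32 of 38 genes (84.2%), against 41.8% of promoters. The matches before 6 genes whose values recur below are shown with 11 bases on either side, from the R64 reference of RefSeq, on the coding strand, with the match in capitals.
NDI1 (chrXIII:30017-30046, minus strand): tattcattcggACCAATCAtatgaaggcat
COX5B (chrIX:155138-155167, plus strand): ttaaacaatagACCAATTAtttcaatttaa
ATP17 (chrIV:1228370-1228399, plus strand): ttacggagagaACCAATCAtatcgaaggat
ATP4 (chrXVI:408916-408945, minus strand): atcaatattgaACCAATCAcgacgcttttt
ATP7 (chrXI:408149-408178, minus strand): gtaaaagatacACCAATTAccacttgctgc
QCR7 (chrIV:1496712-1496741, minus strand): atcttgttttgACCAATCAggagcgacgcg
These 6 include genes with large and with small changes on cycloheximide. On cycloheximide in upf1 cells the 14 genes with a match spanned log2 changes of 0.07 to 2.44, and the 24 without spanned 0.33 to 4.15. In WT cells the genes with a match spanned 0.01 to 2.63, and those without spanned 0.24 to 2.97. A match is a run of letters and no evidence of binding.

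Introns interrupt 3 of the 38 coding regions (7.89%). More than 1 annotated coding segment was found in 5.3% of coding genes, a count that can include splits other than introns. COX5B has the unusual 5′ splice site GCATGT after a first coding exon of 1 base, and QCR10 has GTAAGT. Both introns are shown with the 5′ site, the branch sequence TACTAAC and the last 3 bases in capitals.
COX5B intron (chrIX:155223-155310, plus strand): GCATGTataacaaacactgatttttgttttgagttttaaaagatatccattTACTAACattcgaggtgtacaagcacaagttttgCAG
QCR10 intron (chrVIII:107832-107894, plus strand): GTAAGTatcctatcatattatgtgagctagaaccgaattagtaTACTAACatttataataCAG
The third, in QCR9, is 213 bases long. The table has 1 value per gene, so spliced and unspliced RNA were not separated.

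The unit of all levels below, the scaled read per kb, is 1000 times the deposited density. It is per length and can be compared between genes. Recovered reads numbered 1789934 to 5689067 in upf1 CHX, 2170091 to 2949787 in upf1 DMSO, 2680953 to 4688210 in WT CHX and 1310994 to 2394737 in WT DMSO. NAM7, the gene of Upf1, stood at 13.5 and 10.1 scaled reads per kb in upf1 CHX, 5.94 and 2.80 in upf1 DMSO, 83.5 and 44.8 in WT CHX and 14.8 and 15.2 in WT DMSO, so it was low but not 0 in upf1 cells. WT CHX replicate 1 exceeded replicate 2 for most of the 38 genes, and the summed level of all 38 was 9322 in replicate 1 and 6400 in replicate 2 of WT CHX.

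**Figure D1:**
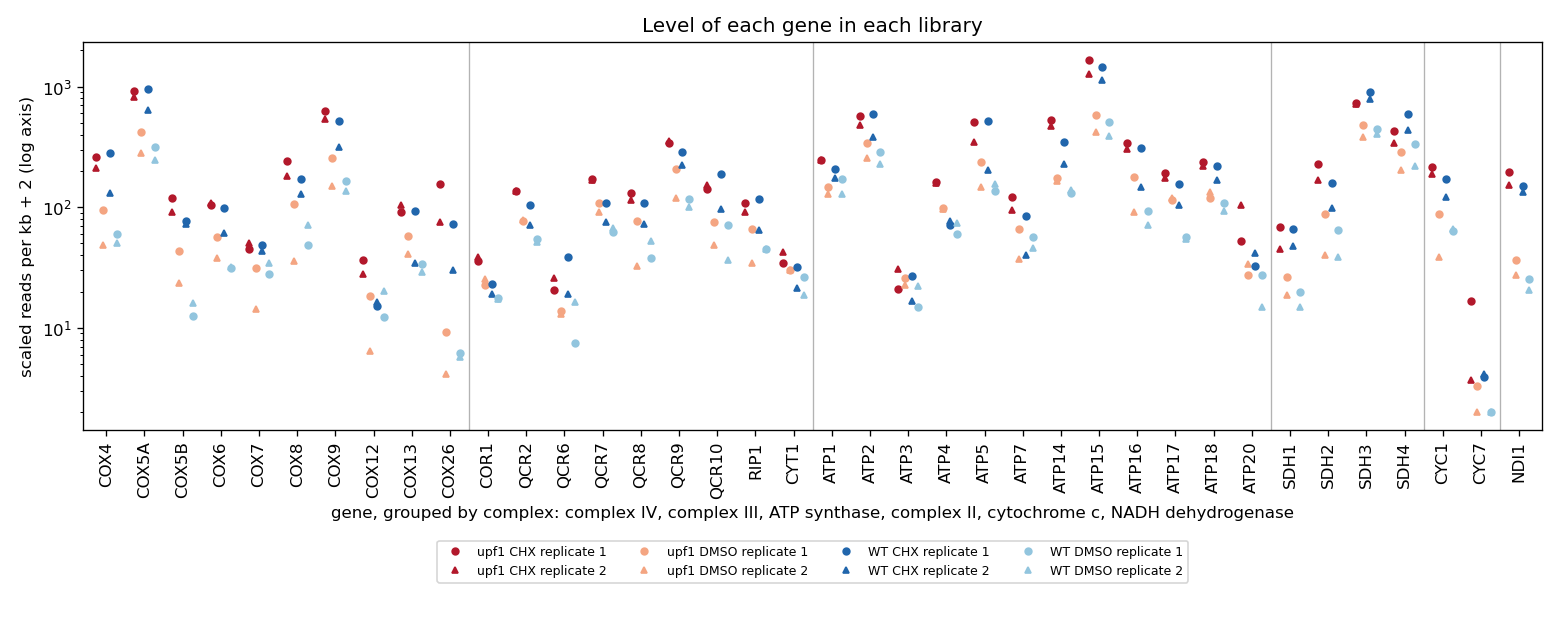
Level of each of the 38 genes in each library, as scaled reads per kb plus 2 on a log axis, with genes grouped by complex and circles and triangles for replicates 1 and 2. ATP15, COX5A and SDH3 are among the highest and CYC7 is the lowest.

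Cycloheximide raised most of the genes on the deposited scale, and so it did most coding genes. In upf1 cells 30 of 38 genes rose and none fell, where 74.0% of coding genes rose and 0.0544% fell. In WT cells 24 of 38 rose and none fell, where 68.5% of coding genes rose and 0.0181% fell. The shares are near those of coding genes in general. The calls used limma with Benjamini-Hochberg adjustment over 10392 features, at an adjusted p of 0.05. The median log2 change of the 38 was 1.18 in upf1 cells, beside 1.25 over 5517 coding genes, and 1.03 in WT cells, beside 1.23. The summed level, in which the highest genes weigh most, rose 2.31-fold in upf1 cells and 2.30-fold in WT cells. The sum over coding genes rose 1.73-fold and 1.89-fold, so the side of the set depends on the measure. Of the coding sum the 38 made up 0.489% and 0.468% in upf1 CHX against 0.387% and 0.325% in upf1 DMSO. For this share the WT groups overlapped, at 0.457% and 0.349% in CHX against 0.356% and 0.311% in DMSO. Both CHX libraries lay above both DMSO libraries for 37 genes in upf1 cells (89% of coding genes did so) and for 33 in WT cells (82.7%). The counts rest on single libraries: 5 rose in upf1 cells without upf1 CHX replicate 1, 9 without upf1 DMSO replicate 2 and 14 without upf1 CHX replicate 2, while 11 rose in WT cells without WT CHX replicate 1 and 15 without WT DMSO replicate 2.

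When each library was scaled to the median of its coding genes, most of these rises were no longer called. In upf1 cells 1 gene was then higher, COX26, and none was lower, against 1.25% and 1.76% of coding genes. In WT cells 3 were higher, COX5B, COX26 and NDI1, and 8 were lower, COR1, QCR2, QCR7, CYT1, ATP1, ATP3, ATP4 and ATP7, against 7.72% and 6.72% of coding genes. These 8 of 38 are a larger share than the 6.72% of coding genes. They are 4 of complex III and 4 of the ATP synthase, and none belongs to complex IV or II. QCR2, a core subunit of complex III, had risen by 0.70 ± 0.23 (log2, SE; adjusted p = 0.0288) on the deposited scale and was lower by this measure (-0.76, adjusted p = 0.049), so its direction depends on the scaling. Of the 30 rises called in upf1 cells 19 were below 0 with median scaling, and of the 24 called in WT cells 18 were, and of all these QCR2 in WT cells alone passed the threshold as lower. Median scaling lowered the log2 changes of the 38 by a median of 1.459 in upf1 cells and 1.465 in WT cells. That is more than the coding medians of 1.246 and 1.232, so a gene below 0 here can still lie above the coding median.

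**Figure D2:**
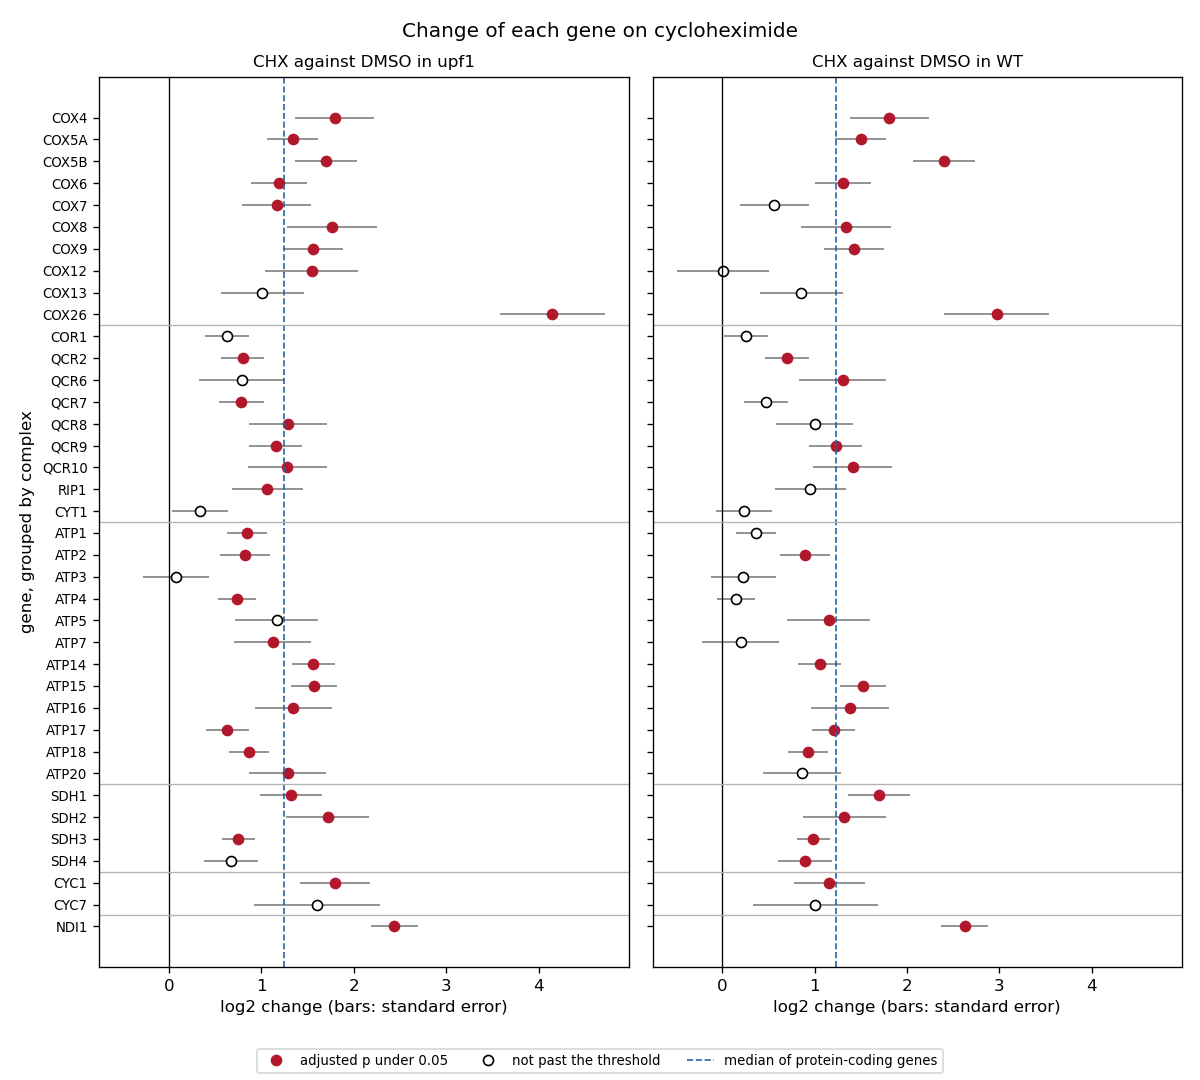
Log2 change of each gene on cycloheximide in upf1 and WT cells, with standard errors, filled points past an adjusted p of 0.05 and a dashed line at the coding median. In upf1 cells 18 genes and in WT cells 14 genes lie right of the dashed line, and COX26 and NDI1 lie far to its right in both genotypes.

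NDI1 (YML120C) encodes the internal NADH dehydrogenase that takes the place of complex I. It had 193 and 150 scaled reads per kb in upf1 CHX, against 34.5 and 25.7 in upf1 DMSO. In wild-type cells it had 147 and 131 under CHX, against 23.3 and 18.6 under DMSO. The groups did not overlap in either genotype. NDI1 rose by 2.44 ± 0.25 in upf1 cells (log2, SE; adjusted p = 0.00158) and by 2.63 ± 0.25 in WT cells (adjusted p = 0.000467), and kept its call in all 8 fits that each left out 1 library. Relative to the coding median it was higher in WT cells (1.20, adjusted p = 0.0176), and in upf1 cells it stood at 0.99 with an adjusted p of 0.0794.

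Complex IV, cytochrome c oxidase, reduces oxygen. Of its 10 nuclear genes 9 rose on cycloheximide in upf1 cells (median log2 change 1.56) and 7 in WT cells (median 1.38). In upf1 cells its median lay 0.31 above the coding median on the deposited scale and 0.22 above it with median scaling. In WT cells it lay 0.15 above on the deposited scale and 0.09 below with median scaling, so its side depended on the scaling there.

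COX26 (YDR119W-A), a small subunit found in supercomplexes of complexes III and IV, had the largest change of all 38 genes. It had 155 and 74.0 scaled reads per kb in upf1 CHX, against 7.20 and 2.12 in upf1 DMSO. The WT values were 70.0 and 27.9 under CHX, against 4.16 and 3.71 under DMSO. The groups did not overlap, although the DMSO libraries held only 5 reads in upf1 and 3 in WT. In upf1 cells 102 reads in CHX stood against 5 in DMSO, a scaled ratio of 18.9 (95% interval 7.83 to 59.4, counting error only), and in WT cells 45 stood against 3, a ratio of 10.7 (3.43 to 53.8). The log2 change was 4.15 ± 0.57 in upf1 cells (SE; adjusted p = 0.00274) and 2.97 ± 0.57 in WT cells (adjusted p = 0.00335).

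COX5A (YNL052W) and COX5B (YIL111W) encode interchangeable forms of subunit 5, used in aerobic and in low-oxygen cells. COX5A had 914 and 821 scaled reads per kb in upf1 CHX, 422 and 277 in upf1 DMSO, 956 and 643 in WT CHX and 315 and 243 in WT DMSO. COX5B had 117 and 88.4 in upf1 CHX, 41.3 and 21.6 in upf1 DMSO, 75.4 and 71.1 in WT CHX and 10.6 and 14.2 in WT DMSO. COX5A was the more abundant form in every library. COX5B rose on cycloheximide by 1.70 ± 0.33 in upf1 cells (adjusted p = 0.00637) and by 2.40 ± 0.33 in WT cells (adjusted p = 0.00115). COX5A rose by 1.34 ± 0.28 in upf1 cells (adjusted p = 0.00743) and by 1.50 ± 0.28 in WT cells (adjusted p = 0.00309). As a share of COX5A, COX5B stood at 12.8% and 10.8% in upf1 CHX, 9.79% and 7.82% in upf1 DMSO, 7.89% and 11.1% in WT CHX and 3.37% and 5.84% in WT DMSO. The WT DMSO libraries were the lowest of the 8, but COX5B had only 8 and 6 reads there. The coding sequences are 69.3% identical with no shared run over 12 bases.

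**Figure D3:**
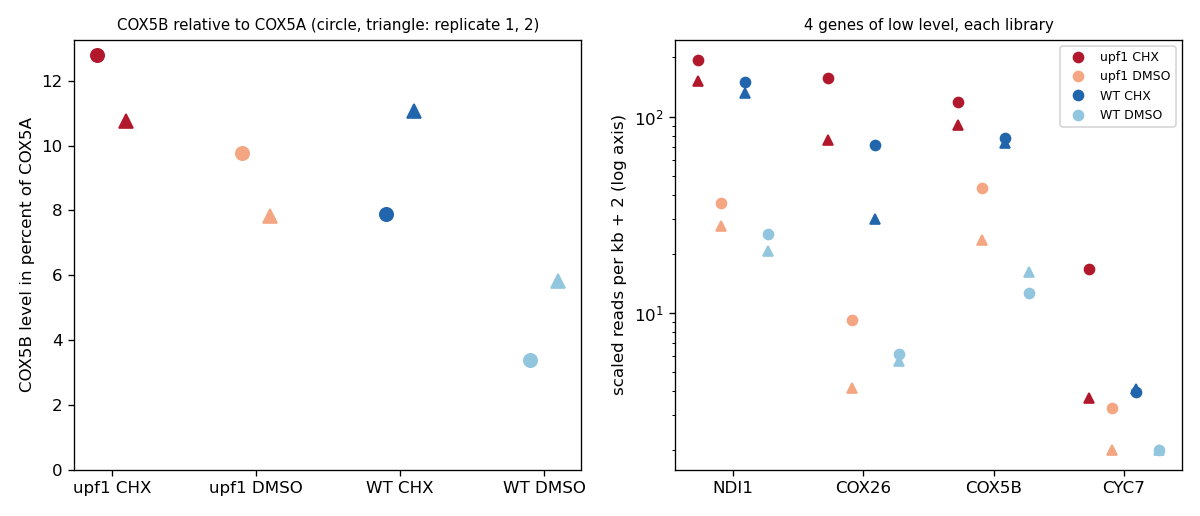
Left, COX5B in percent of COX5A in each library; right, scaled reads per kb plus 2 on a log axis for NDI1, COX26, COX5B and CYC7. The share of COX5B is lowest in WT DMSO, at 3.37% and 5.84%, and NDI1 and COX26 separate CHX from DMSO in both genotypes.

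The smallest change in complex IV was that of COX13 in upf1 cells (1.01 ± 0.45, adjusted p = 0.078) and of COX12 in WT cells (0.01 ± 0.50, adjusted p = 0.99). COX12, which sits on the side facing the intermembrane space, had 34.3 and 25.9 scaled reads per kb in upf1 CHX, against 16.4 and 4.46 in upf1 DMSO. WT cells had 13.2 and 14.4 under CHX, against 10.2 and 18.2 under DMSO. Its WT groups overlapped. The remaining subunits COX4, COX6, COX8 and COX9 rose in both genotypes, by 1.19 to 1.80 in upf1 cells and by 1.30 to 1.81 in WT cells, COX13 passed the threshold in neither, and COX7 rose in upf1 cells (1.17 ± 0.37, adjusted p = 0.0288) and not detectably in WT cells (0.56 ± 0.37, adjusted p = 0.2).

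Complex III passes electrons from coenzyme Q to cytochrome c. Of its 9 genes 6 rose in upf1 cells (median 0.80) and 4 in WT cells (median 0.96), both medians below those of coding genes. QCR2, QCR9 and QCR10 rose in both genotypes, QCR7, QCR8 and RIP1 passed the threshold in upf1 cells, QCR6 passed it in WT cells, and COR1 and CYT1 passed it in neither. The largest change was that of QCR8 in upf1 cells (1.29 ± 0.42, adjusted p = 0.0301) and of QCR10 in WT cells (1.41 ± 0.43, adjusted p = 0.0202). The smallest was that of CYT1, the gene of cytochrome c1, at 0.33 ± 0.30 in upf1 cells (adjusted p = 0.341) and 0.24 ± 0.30 in WT cells (adjusted p = 0.478). CYT1 had 32.2 and 40.2 scaled reads per kb in upf1 CHX, against 28.4 and 27.9 in upf1 DMSO. Wild-type libraries gave 29.8 and 19.3 under CHX, against 24.1 and 16.6 under DMSO. Its WT groups overlapped and its upf1 groups did not. COR1, the other core subunit, had 33.7 and 36.4 in upf1 CHX, against 20.7 and 23.4 in upf1 DMSO. In the WT groups its level was 21.0 and 17.2 under CHX, against 15.8 and 15.3 under DMSO.

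The ATP synthase genes spanned a wide range. In upf1 cells 10 of 12 rose (median 1.00) and in WT cells 7 of 12 (median 0.91). ATP2, ATP14, ATP15, ATP16, ATP17 and ATP18 rose in both genotypes, ATP1, ATP4, ATP7 and ATP20 passed the threshold in upf1 cells, ATP5 passed it in WT cells, and ATP3 passed it in neither. ATP15 (YPL271W), for the epsilon subunit of the central stalk, had the largest change in both, 1.57 ± 0.25 in upf1 cells (adjusted p = 0.0039) and 1.52 ± 0.25 in WT cells (adjusted p = 0.00195). It stood at 1656 and 1273 scaled reads per kb in upf1 CHX, against 575 and 416 in upf1 DMSO. The wild-type libraries held 1449 and 1127 under CHX, against 511 and 385 under DMSO. The smallest change in upf1 cells was that of ATP3, for the gamma subunit (0.07 ± 0.36, adjusted p = 0.858). In WT cells it was that of ATP4 (YPL078C), for subunit b of the peripheral stalk (0.15 ± 0.21, adjusted p = 0.504). ATP4 had 161 and 157 in upf1 CHX, against 95.5 and 93.8 in upf1 DMSO. Among WT libraries the values were 68.6 and 75.5 under CHX, against 57.5 and 72.4 under DMSO. It rose in upf1 cells (0.74 ± 0.21, adjusted p = 0.0178), and its WT groups overlapped. ATP1 and ATP2, for the alpha and beta subunits of the catalytic head, rose by 0.85 ± 0.22 and 0.82 ± 0.27 in upf1 cells. In WT cells ATP2 rose by 0.90 ± 0.27 and ATP1 changed by 0.37 ± 0.22 (adjusted p = 0.159).

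Of the 4 complex II genes 3 rose in upf1 cells (median 1.04) and 4 in WT cells (median 1.15). SDH1, SDH2 and SDH3 rose in both genotypes. SDH4 changed by 0.67 ± 0.29 in upf1 cells (adjusted p = 0.0739) and rose by 0.89 ± 0.29 in WT cells (adjusted p = 0.027). The largest change was that of SDH2 in upf1 cells (1.72 ± 0.45, adjusted p = 0.0145) and of SDH1 in WT cells (1.70 ± 0.33, adjusted p = 0.00378). The membrane anchor SDH3 (YKL141W) was 11-fold to 31.2-fold above the flavoprotein gene SDH1 per length in the 8 libraries. CYC1 (YJR048W), the main cytochrome c gene, rose by 1.80 ± 0.38 in upf1 cells (adjusted p = 0.0078) and by 1.16 ± 0.38 in WT cells (adjusted p = 0.0275). Its low-oxygen counterpart CYC7 (YEL039C) had 7 reads in upf1 CHX, 1 in upf1 DMSO, 3 in WT CHX and 0 in WT DMSO. Neither genotype gave a call for it. No fold is given for CYC7 in WT cells, and in upf1 cells its ratio was 6.48 with a 95% interval of 0.832 to 292. CYC1 and CYC7 share an identical run of 35 bases, so reads there may be assigned to either.

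Between genotypes, 1 gene passed the threshold. In DMSO 1 of 38 was higher in upf1 than in WT cells and none was lower, where 13.2% of coding genes were higher and 0.254% lower. The gene was ATP17 (YDR377W), for subunit f of the membrane part of the ATP synthase, with 113 and 118 scaled reads per kb in upf1 DMSO against 54.2 and 52.4 in WT DMSO. The difference was 1.09 ± 0.24 (log2, SE; adjusted p = 0.0253), the groups did not overlap (both upf1 libraries were above both WT libraries for 14 of the 38 and for 53.7% of coding genes), and the call was lost in 6 of the 8 fits that each left out 1 library, with adjusted p up to 0.104. The median difference of the 38 was 0.33, beside 0.51 over coding genes and 0.47 over the well-read ones. With median scaling none was higher and 2 were lower, COX7 (-1.28, adjusted p = 0.0445) and SDH3 (-0.73, adjusted p = 0.0445), against 3.84% and 2.77% of coding genes.

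COX5B had the largest difference in DMSO, 1.16 ± 0.33, with an adjusted p of 0.056 that misses the threshold, and COX7 the lowest (-0.55 ± 0.37, adjusted p = 0.353). Among complex III genes the differences ran from 0.08 ± 0.38 for RIP1, the Rieske protein, to 0.61 ± 0.24 for QCR7. In complex II they ran from -0.18 ± 0.29 for SDH4 to 0.36 ± 0.33 for SDH1, and ATP1 had the lowest of the ATP synthase genes (-0.11 ± 0.22). CYC1 differed by -0.16 ± 0.38, NDI1 by 0.48 ± 0.25 and COX26 by 0.05 ± 0.57, none past the threshold.

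**Figure D4:**
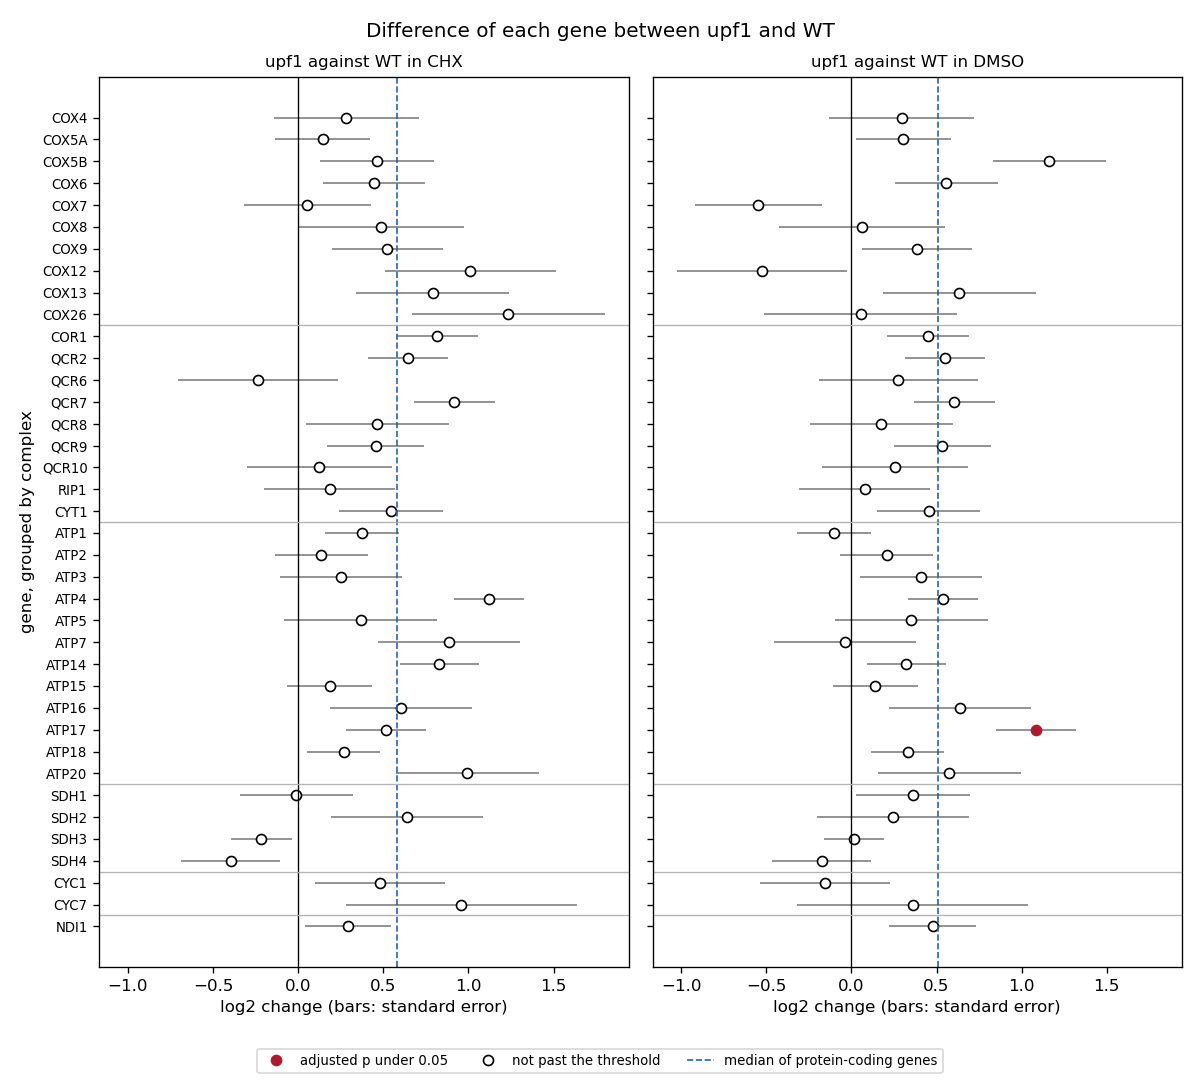
Log2 difference of each gene between upf1 and WT cells in CHX and in DMSO, with standard errors and a dashed line at the coding median. ATP17 in DMSO is the one filled point, and most genes lie between 0 and the dashed line.

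Under cycloheximide none of the 38 genes differed between upf1 and WT cells by limma, where 0.0544% of coding genes were higher and 0% lower. At an unadjusted p of 0.05, 6 of the 38 passed, all of them higher, where 31.2% of coding genes passed in either direction. By limma voom on recovered reads 4 were higher, COR1, QCR7, ATP4 and ATP14, and none was lower, where the same fit called 17.9% of coding genes higher and 0.562% lower. The median difference was 0.46, beside 0.58 over coding genes and 0.37 over the well-read ones, so its side depends on the reference. ATP4 had 161 and 157 scaled reads per kb in upf1 CHX against 68.6 and 75.5 in WT CHX, a difference of 1.12 ± 0.21 (adjusted p = 0.113) that voom called (1.13, adjusted p = 0.0182). Elsewhere the differences reached 1.24 ± 0.57 for COX26, 0.92 ± 0.24 for QCR7 and 0.64 ± 0.45 for SDH2, and were lowest at 0.05 ± 0.37 for COX7, -0.24 ± 0.47 for QCR6 and 0.14 ± 0.27 for ATP2. COX5A differed by 0.14 ± 0.28, COX5B by 0.46 ± 0.33, CYC1 by 0.48 ± 0.38 and NDI1 by 0.29 ± 0.25. The difference was above 0 for 34 of the 38 genes and below 0 for QCR6, SDH1, SDH3 and SDH4. SDH3 had 726 and 717 in upf1 CHX against 896 and 786 in WT CHX. SDH4 had 428 and 341 in upf1 CHX against 586 and 433 in WT CHX. Both upf1 libraries lay below both WT libraries for these 2 of the 38 genes, as they did for 4.1% of coding genes, and above them for 22 of the 38, as for 64% of coding genes. The differences were -0.22 ± 0.18 for SDH3 (adjusted p = 0.457) and -0.40 ± 0.29 for SDH4 (adjusted p = 0.411).

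A count of calls cannot be compared between these contrasts, because the adjustment asks more where fewer features move. The largest unadjusted p that was called was 0.0321 for cycloheximide in upf1 cells, 0.035 in WT cells, 0.00752 for upf1 against WT in DMSO and 3.98e-05 for upf1 against WT in CHX, over the same standard errors (median 0.33 for the 38 genes).

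The response to cycloheximide was not shown to differ between genotypes for any of the 38 genes, nor for any coding gene (0%). None of the 38 reached an unadjusted p of 0.05 in the interaction, where 5.08% of coding genes did. Its standard error was larger (median 0.47), and its largest value was that of COX12 (1.54 ± 0.71, adjusted p = 0.58). By the threshold, 21 genes rose in both genotypes, 9 in upf1 alone, 3 in WT alone (QCR6, ATP5 and SDH4) and 5 in neither (COX13, COR1, CYT1, ATP3 and CYC7), and that split is not a difference between genotypes.

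Other genes of the pathway were counted from lists, beside the 74.0% of coding genes that rose on cycloheximide in upf1 cells and 68.5% in WT cells. Of 34 complex IV assembly factors 22 rose on cycloheximide in upf1 cells and 25 in WT cells, with medians of 1.15 and 1.44. COA2 had the largest change, 3.71 ± 0.50 in upf1 cells (adjusted p = 0.0026) and 4.11 ± 0.50 in WT cells (adjusted p = 0.000766). All 10 coenzyme Q synthesis genes rose in both genotypes, and 10 of 12 citric acid cycle genes did in each. With median scaling no gene of either list was called in either genotype. Of 8 heme synthesis genes 8 rose in upf1 cells and 6 in WT cells. Of 13 assembly factors for complex III and cytochrome c 10 rose in upf1 cells and 12 in WT cells, and of 14 for the ATP synthase 7 and 8 did so. Of 5 complex II assembly factors 4 rose in upf1 cells and 3 in WT cells. Of 5 other ATP synthase subunits and regulators 4 rose in upf1 cells and 3 in WT cells. Of 8 other electron donors and SDH paralogues 6 rose in each genotype, and of 7 HAP and oxygen regulators 5 did. Of 5 mitochondrial carriers 2 rose in upf1 cells (median 0.37) and 4 in WT cells (median 0.57). With median scaling MZM1 was the one gene of the assembly and heme lists higher in upf1 cells, while in WT cells COX19, COA2, SDH5 and HEM12 were higher and INA17 was lower. Among the carriers, with the same scaling, MIR1 and POR1 were lower in upf1 cells, where 1.76% of coding genes were. In WT cells PET9, MIR1 and POR1 were lower, where 6.72% of coding genes were, and AAC3 was higher. Among the electron donors and regulators ROX1 was higher in upf1 cells, and SHH4 and HAP1 were in WT cells. None of the 5 mitochondrially encoded subunits that were tested was called on cycloheximide in either genotype, with medians of 0.27 in upf1 cells and 0.44 in WT cells. With median scaling none was called in upf1 cells, and in WT cells 1 was lower, COX1, a catalytic subunit of complex IV (-1.15, adjusted p = 0.0403), where 6.72% of coding genes were. The 5′ ends of these mitochondrial RNAs were not examined. Terminator may act on them otherwise than on nuclear mRNA, so their values may not compare with those of nuclear genes. In DMSO, COX19, a copper-binding assembly factor of complex IV, was higher in upf1 than in WT cells by 2.19 ± 0.21 (adjusted p = 0.00314), 1 of 3 such factors of 34 that were higher, where 13.2% of coding genes were. SHH4, a paralogue of SDH4, was higher by 1.73 ± 0.30 (adjusted p = 0.0125). Of the 8 other electron donors and SDH paralogues 2 were higher. HAP5, a subunit of the CCAAT-binding complex, was higher by 1.56 ± 0.28 (adjusted p = 0.0142), as 1 of 7 HAP and oxygen regulators. COX19, SHH4 and HAP5 were also higher with median scaling. The other HAP subunits were not called. HAP4, the subunit that activates transcription, differed by 0.17 ± 0.36 (adjusted p = 0.781). HAP2 differed by -0.27 ± 0.36 (adjusted p = 0.638) and HAP3 by 0.54 ± 0.31 (adjusted p = 0.27).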

How the data were processed

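The 8 libraries of Terminator-digested total RNA were used as 2 per group. The authors deposited a normalized density (a signal per feature) for each library, and the submitters' processing notes name Trim Galore, HISAT2 2.2.0, featureCounts 2.0.0, DESeq2 and the R64 genome, with no role or order. The basis of the library factors is not given in the sources used here. ERCC spike-in RNA was added per the labels' protocols, and whether it set the factors is not stated. The values were whole multiples of 1 read per feature and library (100.0% of positive values, within 0.001 reads), which gave recovered reads. Reads are not independent molecules, so intervals cover counting error only.

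Densities were multiplied by 1000 and tested as log2(value + 2) with limma 3.58.1 in R 4.3.3, with a variance trend and 4 group means over all 8 libraries (residual df 4, prior df 3.60). Features with a mean under 2 and 8 rRNA rows were left out, which left 10392 features, and p-values were adjusted over all of them by Benjamini-Hochberg. The pseudocount understates changes of weak genes. All 38 genes passed the filter, CYC7 mainly through upf1 CHX replicate 1. The fit was tested on simulated data, where it recovered the size of changes but called few changed genes when few features changed or reads were sparse, so a gene that was not called is not shown to be unchanged. Figures were drawn with Matplotlib 3.10.9.

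All 38 genes were accounted for. Full statistics were given for those called on both the deposited scale and with median scaling, for the largest and smallest change of each complex, and for COX5A, COX5B, CYC1, CYC7 and COX26. Pathway genes were named by the largest change among those called; those of smallest change, which the rule also allowed, are not printed. HAP1, HAP2, HAP3, HAP4, ROX1 and the mitochondrial carriers were added after their values were seen. So were values of COX7, ATP1, ATP2, ATP4, COR1 and SDH3 beyond that rule. The members and lists were chosen with earlier results of these data known. Libraries were not treated as paired by replicate number, since no pairing is stated. Deviations of same-numbered libraries correlated by -0.044 to 0.117. These values include counting noise, so they cannot show whether such libraries were made together.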

Additional observations from a re-analysis of the deposited data

How the results depend on the processing

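Direction and counts depended on the scaling. Members higher on cycloheximide numbered 1 in upf1 and 3 in WT cells with median scaling, 2 and 1 with quantile normalization, and 2 and 3 with the median of well-read coding genes, an alternative chosen after seeing the data. In upf1 cells COX26 was called under each of these, and NDI1 under all but median scaling. In WT cells NDI1 was called under each, and COX5B and COX26 under all but quantile normalization. Members lower in WT cells numbered 8, 7 and 6 under the same alternatives, against 0 on the deposited scale. Leaving out each library gave 5 to 31 higher in upf1 and 11 to 26 in WT cells. For upf1 against WT in DMSO, 0 were higher under all 3 scalings, 2 with 5 times the minimum, and 0 to 1 with a library left out, and 2 were lower with median scaling. For upf1 against WT in CHX, 1 was higher with 4 times the pseudocount and 4 with voom.

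Of the called changes on cycloheximide, 19 of 30 in upf1 and 18 of 24 in WT cells were below 0 with median scaling. Among genes given with full statistics, those in upf1 cells were ATP4 (-0.73, -0.56 and -0.53 with median, quantile and well-read scaling), SDH3 (-0.73, -0.36 and -0.53), ATP2 (-0.66, -0.305 and -0.45), ATP1 (-0.63, -0.41 and -0.42), COX7 (-0.22, -0.14 and -0.027), QCR8 (-0.16 with median and -0.00434 with quantile scaling) and COX5A (-0.15 with median scaling). In WT cells they were QCR2 (-0.76, -0.70 and -0.68 with median, quantile and well-read scaling), SDH4 (-0.60, -0.37 and -0.52), ATP2 (-0.60, -0.34 and -0.52), SDH3 (-0.51, -0.175 and -0.43), CYC1 (-0.31, -0.22 and -0.23), QCR10 (-0.055) and COX5A (-0.000191), the last 2 with median scaling alone. The cause was not tested. The fit with the replicate block gave 32 higher in upf1 and 24 in WT cells on cycloheximide and 1 in DMSO, and moved no count by over 1.5 times, and the numbers share no stated pairing. Other pseudocounts, filters and the fit without a variance trend kept each cycloheximide count within 1.5 times. COX26 rests on 3 and 5 reads in DMSO and CYC7 on 0 and 1, so depth limits both.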
